A study of Homo sapiens with 18 samples.

Results

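The genes described here are 45 that copy DNA or supply its building blocks: factors that license and fire origins, subunits of the replicative helicase, the replicative polymerases with their clamp and clamp loader, single-strand binding proteins, Okazaki fragment enzymes, nucleotide enzymes, fork protection proteins and histone supply factors. They were chosen by name, as genes with these functions. All 45 were found among 41285 genes in the count table, and all 45 passed the filter on low counts that left 22143 genes for testing.

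The cells were K562, a human chronic myeloid leukaemia cell line with erythroid features, as 3 isogenic lines. The [VPR]-D9 line carries doxycycline-inducible dCas9-VPR, a nuclease-dead Cas9 fused to a transcriptional activator, and was studied in the doxycycline groups D2000 and D6 and untreated. The [KRAB]-D9 line carries doxycycline-inducible dCas9-KRAB, the same protein fused to a repressor, and was studied with doxycycline and interferon alpha (IFN) together, with doxycycline alone, with IFN alone and untreated. The parental line was studied with IFN and untreated. Each of these 9 groups had 2 libraries. IFN was given for 24 hours at 1000 U/mL. The stated doxycycline dose was 2 µg/mL, and whether the D6 cells received this dose is not stated. The KRAB-D9 cells of the combined group were already 24 hours into doxycycline at the start of IFN and kept it throughout. The meaning of the codes D2000 and D6, any difference in dose or time between them, and the length of doxycycline treatment in groups with no IFN are not stated in the sources used here. A parental group with doxycycline was not analysed here, so an effect of the drug alone and an effect of the induced dCas9 fusion cannot be told apart. The labels tell neither whether D9 names a single clone nor whether the libraries of a group are separate cultures, and the spread behind each p-value may be technical.

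The libraries held 32.7 to 63 M counts, with a median of 52.9 M (M, 1e6), and no member had fewer than 384 counts in any library. Levels are given as CPM, counts per 1e6 counts after TMM scaling, and fold changes as log2 values ± standard error (SE). A gene was called when its adjusted p (edgeR quasi-likelihood, Benjamini-Hochberg over the 22143 genes) was under 0.05, and every adjusted p below is of this kind. SAMD9, the gene that both fusions target, had 974 and 948 CPM in D2000 libraries, 936 and 960.5 CPM in those of D6 and 59.9 and 61.4 CPM in untreated VPR-D9 cells. In KRAB-D9 cells it had 0.85 and 0.74 CPM with doxycycline and IFN, 0 and 0.12 CPM with doxycycline (0 and 6 counts), 55.0 and 53.5 CPM with IFN and 0.75 and 0.36 CPM untreated. In parental cells it had 167.5 and 154.5 CPM with IFN and 9.31 and 9.05 CPM untreated. All 10 K562 markers, among them GATA1, TAL1 and the globin HBG1, had counts in every library. Of the markers of other cell types, CD8A, LUM, PDGFRA and KRT5 had no counts in 16 of the 18 libraries, while EPCAM had 30.4 to 98.8 CPM throughout. The libraries of KRAB-D9 cells with IFN stood apart from each other: the variance between them was 18.8 times counting noise over all genes and 30.8 times over the members, against 4.7 to 7.16 times and 3.1 to 8.09 times in the other groups.

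A human cell prepares to copy its genome by loading the MCM2-7 helicase at origins, a step carried out in G1 by the origin recognition complex with CDC6 and CDT1. In S phase CDC45 and the GINS complex join MCM2-7 to form the active helicase, polymerase alpha with primase starts each strand, polymerases delta and epsilon extend it on the PCNA clamp, and FEN1 and LIG1 join the Okazaki fragments. Ribonucleotide reductase, thymidylate synthase and thymidine kinase supply the deoxynucleotides. Many of these genes are known targets of E2F transcription factors and are transcribed most around the start of S phase, so their mRNA in a culture also depends on how many cells are in that phase. In bulk samples fewer such cells and less RNA per cell cannot be told apart.

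An E2F element was looked for in the promoters of members and was found in some of them. RefSeq promoter windows (GRCh38.p14, 250 bases before to 50 after the start) were matched for 39 of the 45 members. An E2F consensus string (TTTCCCGC, TTTGGCGC, TTTCGCGC or TTTGCCGC, on either strand) was found in the windows of 19 of these 39 members (48.7%), against 3.99% of 27305 genes. Those 27305 genes were not filtered by expression in these cells. The CCAAT box, the binding sequence of NF-Y, was found on either strand in 24 of 39 members (61.5%), against 39.7% of all genes, and no E2F string holds CCAAT or ATTGG. Stretches of 60 bases around an E2F string are shown for 7 members: the helicase subunits GINS2, MCM7 and MCM6, the thymidylate synthase TYMS, the clamp loader subunit RFC3 and the clamp PCNA, which fell by 0.71 to 1.04 on the log2 scale in D2000, and POLA2, a polymerase alpha subunit that fell by 0.36. Capitals mark E2F strings and CCAAT boxes, and on the other strand TTTCCCGC reads GCGGGAAA, TTTCGCGC reads GCGCGAAA and CCAAT reads ATTGG. They lie at chr16:85688955-85689014 (minus strand), chr7:100101398-100101457 (minus), chr2:135876496-135876555 (minus), chr18:657588-657647 (plus), chr13:33818068-33818127 (plus), chr20:5126648-5126707 (minus) and chr11:65261883-65261942 (plus), in the order printed.
GINS2: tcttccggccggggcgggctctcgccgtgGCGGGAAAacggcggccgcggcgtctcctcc
MCM7: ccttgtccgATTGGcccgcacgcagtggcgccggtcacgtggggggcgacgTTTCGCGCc
MCM6: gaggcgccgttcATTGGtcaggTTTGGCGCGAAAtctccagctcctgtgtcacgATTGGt
TYMS: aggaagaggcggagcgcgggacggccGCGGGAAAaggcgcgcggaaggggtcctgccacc
RFC3: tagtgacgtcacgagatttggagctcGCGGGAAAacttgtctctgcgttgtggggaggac
PCNA: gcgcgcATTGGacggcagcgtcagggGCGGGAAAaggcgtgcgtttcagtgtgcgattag
POLA2: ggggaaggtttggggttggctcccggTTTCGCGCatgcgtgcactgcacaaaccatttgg
In these stretches the string of MCM6 is 2 E2F strings that share their middle bases, one on each strand, with an ATTGG on either side. The members with an E2F string had a median log2 fold change of -0.71 in D2000 (range -1.04 to -0.36), and those without one -0.56 (-1.01 to -0.11). For the CCAAT box the medians were -0.69 with it and -0.60 without it. The ranges overlap widely in both cases, and these values describe windows in which a match is a run of letters, not a measured binding site.

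The question in VPR-D9 cells was how replication genes stand when SAMD9 is raised above its level in the untreated line. In D2000, 44 of the 45 members fell and none rose, with a median log2 fold change of -0.65 (range -1.09 to -0.11), while the median was 0.06 over all genes tested and -0.17 over the 8749 genes whose mean level was at least that of the lowest member. The background was high: 24.2% of all genes tested were called lower, and 52.1% of those 8749 genes. Both D2000 libraries lay below both untreated libraries for all 45 members, as they did for 33.8% of all genes tested and 59.5% of the 8749. Summed over the members, the level was 4399 and 4322 CPM in D2000, 6450 and 6485 CPM in the D6 libraries and 7121 and 7066 CPM in untreated VPR-D9 cells, and D2000 had the lowest sum of the 9 groups. D2000 had the lowest mean of the 9 groups for 39 of the 45 members, and the exceptions were POLA2, PRIM2, POLD3, RPA3, TK1 and CLSPN.

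**Figure D1:**
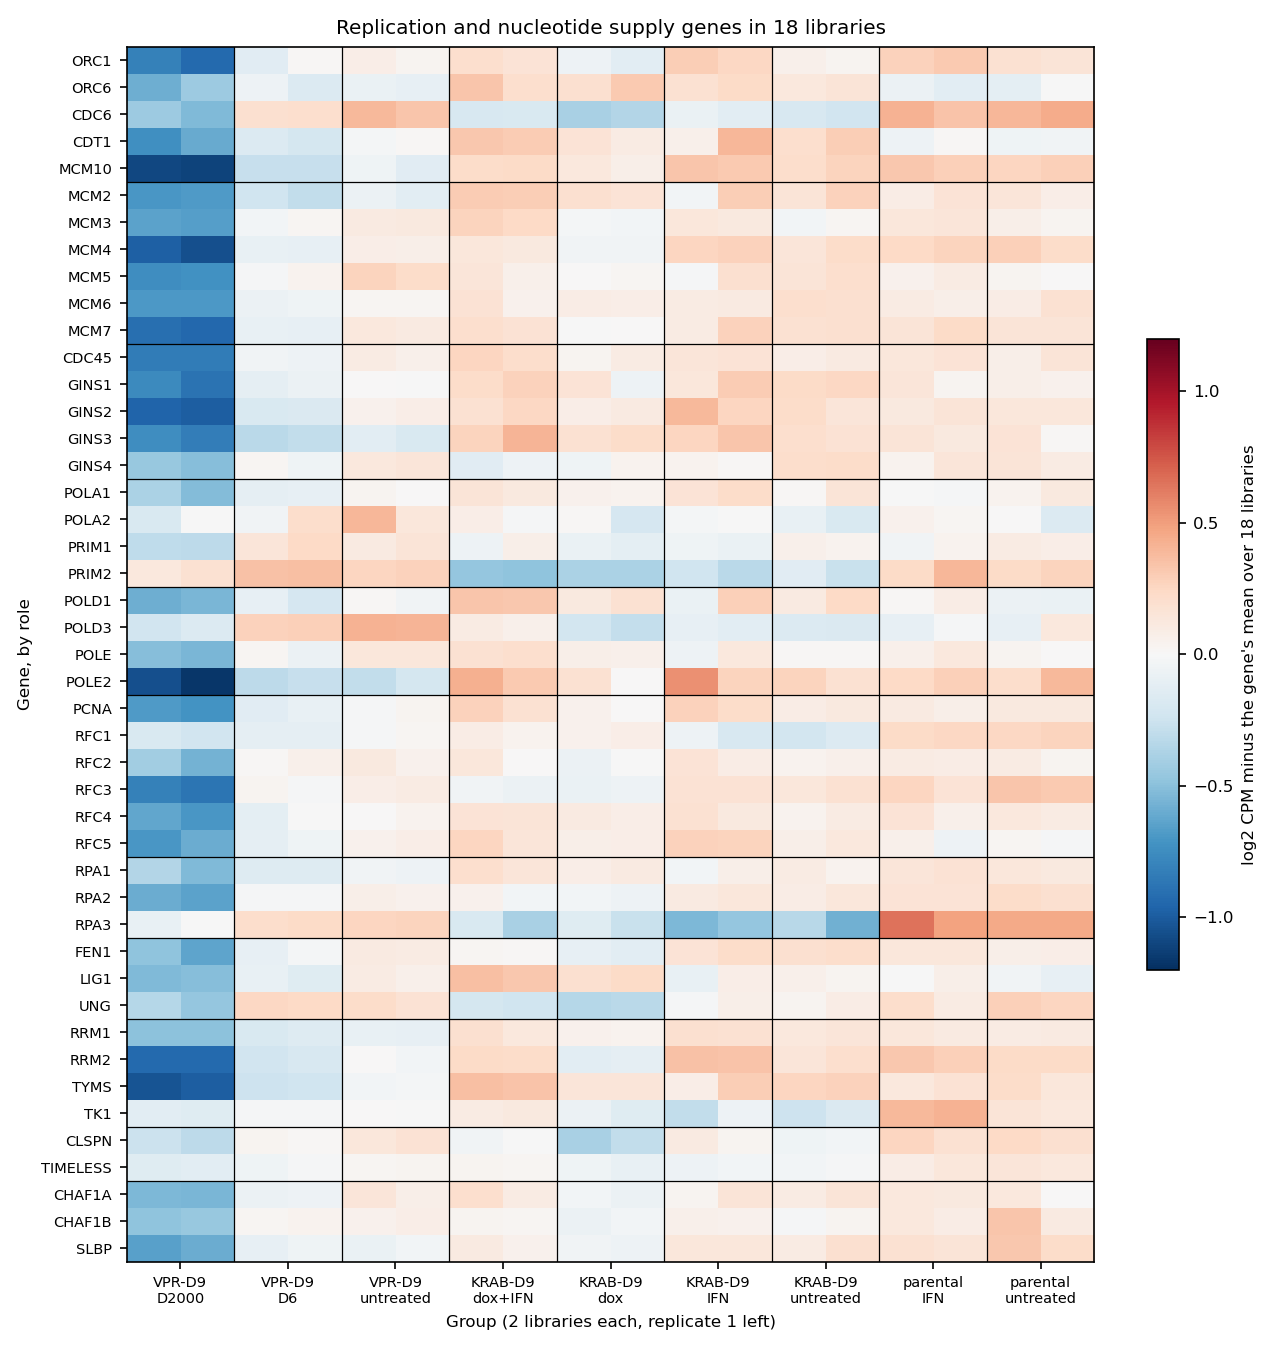
Log2 CPM of each of the 45 genes (rows, ordered by role, with lines between roles) in each of the 18 libraries (columns, 2 for each group), minus the gene's own mean over the 18 libraries. The D2000 columns at the left are low for most rows, and D2000 is the lowest group for 39 of 45 genes.

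Several properties of the D2000 libraries moved with this result. Their TMM factors were 1.167 and 1.192, against 1.005 in both libraries of untreated VPR-D9 cells, so the scaling bears on their values. Scaled by library totals alone, 39 members were called lower and 41 of 45 had negative fold changes, with a median of -0.42, while the median of all genes moved to 0.29. Relative to the median of all genes, the members' median was -0.71 under both scalings, and relative to that of the 8749 genes it was -0.48 under both. A change of scaling moves all genes by nearly the same amount. These differences therefore could not change with it and are no check on the scaling. The summed K562 markers were also lower, at 980 and 964 CPM in D2000, 1478 and 1488 CPM in the D6 libraries and 1613 and 1620 CPM in untreated cells, with 7 of the 10 markers called lower and 1 called higher in D2000. The summed lymphoid markers were higher, at 17.5 and 16.2 CPM in D2000 against 9.96 to 11.4 CPM in D6 and untreated VPR-D9 cells, with CD8A at 0.0193 CPM or less throughout. The part of these properties in the result was not tested.

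Licensing and firing factors had a median log2 fold change of -0.85 in D2000, and all 5 fell. MCM10, which helps to activate the loaded helicase, had 44.3 and 43.7 CPM in D2000 against 91.2 and 86.1 CPM in untreated VPR-D9 cells, a log2 fold change of -1.01 ± 0.05 (adjusted p = 1.6e-20). ORC1, the origin recognition subunit that appears in G1, had 70.6 and 64.8 CPM in D2000 against 130.3 and 126 CPM in untreated cells (-0.92 ± 0.05). CDC6, the ATPase that loads MCM2-7, had 95.6 and 89.8 CPM in D2000 against 169.7 and 164 CPM in untreated cells (-0.85 ± 0.04). For each of the 3 the level in D2000 was between 0.50 and 0.56 of that in untreated cells. CDT1, which brings MCM2-7 to the origin, fell by 0.66 ± 0.07, and ORC6, a small subunit of the origin recognition complex, by 0.42 ± 0.06.

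All 11 helicase subunits fell. All 6 MCM2-7 genes fell, by 0.59 to 1.09 on the log2 scale, although their products are needed in equal numbers in the hexamer. MCM4 had 205 and 195 CPM in D2000 against 427 and 424 CPM in untreated VPR-D9 cells, a log2 fold change of -1.09 ± 0.04 (adjusted p = 8.81e-25), the largest fall among the members. MCM7 had 414 and 403 CPM in D2000 against 844 and 832 CPM in untreated cells, a log2 fold change of -1.04 ± 0.04 (adjusted p = 2.18e-23). For both genes the libraries of one group lay close together and the groups far apart. MCM5 fell by 0.98 ± 0.05, MCM3 by 0.76 ± 0.04, MCM6 by 0.71 ± 0.04 and MCM2 by 0.59 ± 0.07. CDC45, the protein that completes the active helicase, had 148 and 149 CPM in D2000 against 285 and 277 CPM in untreated cells (-0.92 ± 0.04). The 4 genes of the GINS complex fell by 1.04 ± 0.05 (GINS2), 0.82 ± 0.07 (GINS1), 0.63 ± 0.08 (GINS3) and 0.62 ± 0.06 (GINS4). GINS2 had 33.2 and 32.6 CPM in D2000 against 67.0 and 68.2 CPM in untreated cells (adjusted p = 4.47e-19).

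**Figure D2:**
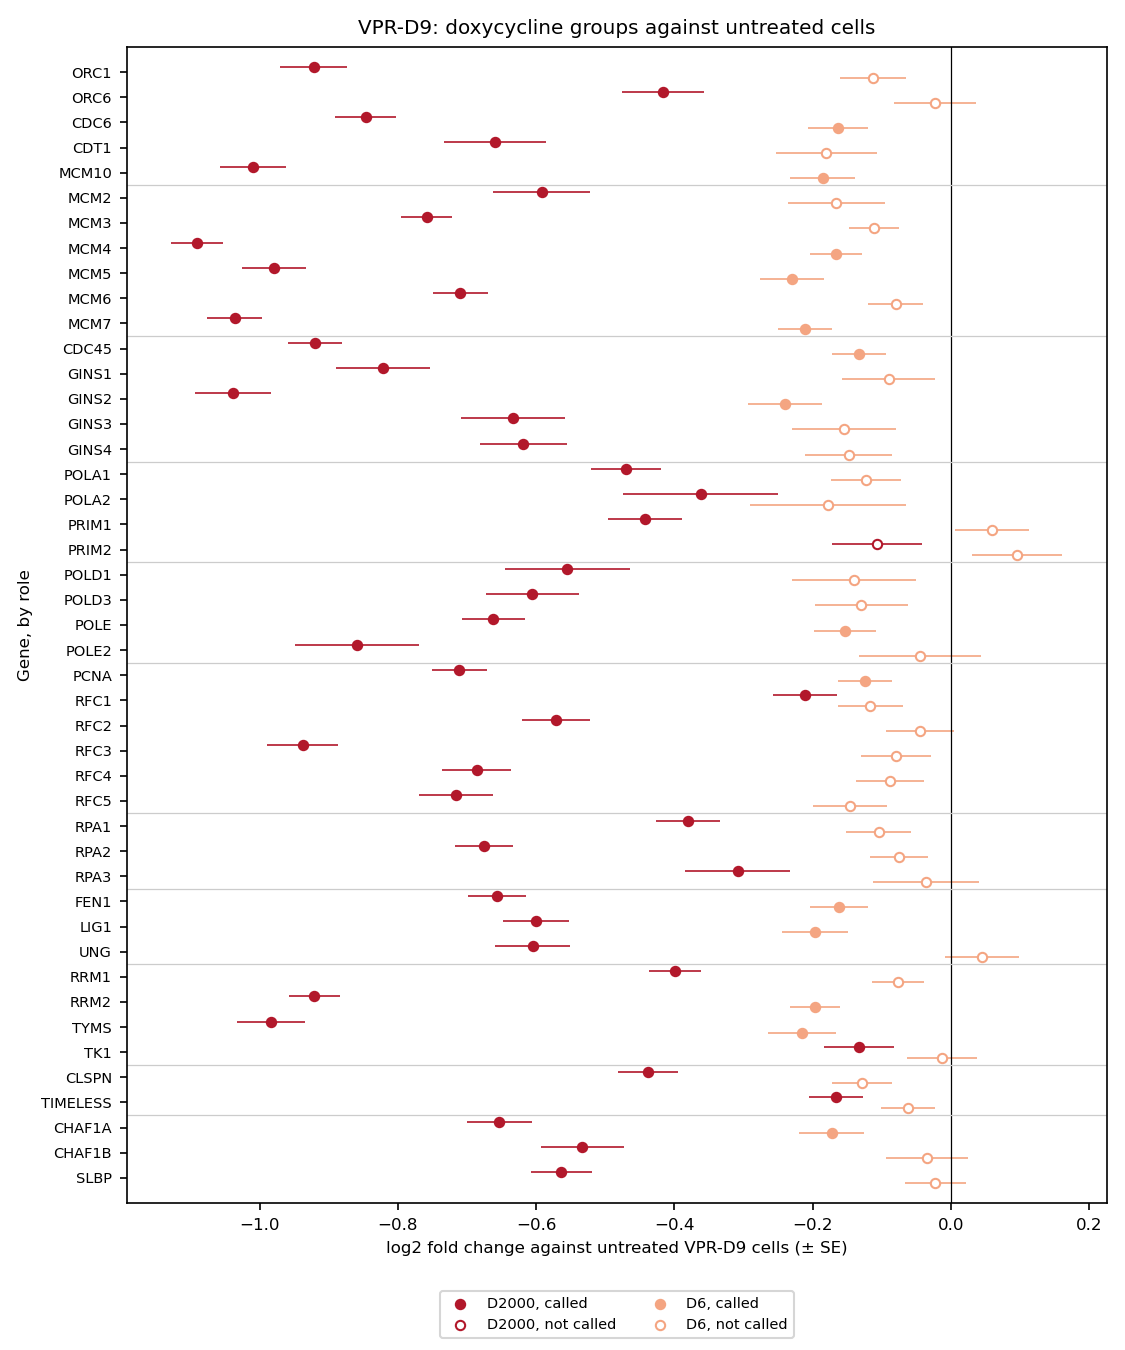
Log2 fold change against untreated VPR-D9 cells for D2000 (dark) and D6 (light), with bars of 1 SE; filled points passed an adjusted p of 0.05 and genes run down the page by role. All D2000 points lie below 0 and all but PRIM2 are filled, while the D6 points lie between -0.24 and 0.10.

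The polymerases fell less evenly. Of polymerase alpha and primase, which lay the primers, POLA1 fell by 0.47 ± 0.05, PRIM1 by 0.44 ± 0.05 and POLA2 by 0.36 ± 0.11. The large primase subunit PRIM2 had 42.1 and 43.9 CPM in D2000 against 46.0 and 46.6 CPM in untreated VPR-D9 cells, and was the 1 member that did not pass the test (-0.11 ± 0.06, adjusted p = 0.186). Its D2000 libraries lay just below the untreated ones. Of polymerases delta and epsilon, which extend the strands, the catalytic subunits POLE and POLD1 fell by 0.66 ± 0.05 and 0.55 ± 0.09, and the accessory subunits POLE2 and POLD3 by 0.86 ± 0.09 and 0.61 ± 0.07. POLE2 had 12.7 and 11.7 CPM in D2000 against 21.4 and 22.8 CPM in untreated cells.

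Of the clamp and its loader, PCNA had 163 and 160 CPM in D2000 against 260 and 269 CPM in untreated VPR-D9 cells (-0.71 ± 0.04). RFC2, RFC3, RFC4 and RFC5 of the loader fell by 0.57 to 0.94, RFC3 with 40.6 and 38.8 CPM in D2000 against 75.4 and 76.7 CPM in untreated cells (-0.94 ± 0.05). RFC1, the largest subunit and the one particular to the PCNA loader, fell by 0.21 ± 0.05, with 94.3 and 91.6 CPM in D2000 against 106 and 109 CPM in untreated cells. The loader subunits thus differed from each other by more than their errors. The single-strand binding subunits fell by 0.68 ± 0.04 (RPA2), 0.38 ± 0.05 (RPA1) and 0.31 ± 0.08 (RPA3). The flap nuclease FEN1, the ligase LIG1 and the uracil glycosylase UNG fell by similar amounts, 0.66 ± 0.04, 0.60 ± 0.05 and 0.61 ± 0.05.

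Nucleotide supply genes covered nearly the whole range. Thymidylate synthase (TYMS) had 61.9 and 64.0 CPM in D2000 against 124 and 125 CPM in untreated VPR-D9 cells, a log2 fold change of -0.98 ± 0.05. RRM2, the subunit of ribonucleotide reductase that is limited to S phase, had 164 CPM in both D2000 libraries against 316 and 307 CPM in untreated cells (-0.92 ± 0.04). RRM1, its partner, which is held more constant through the cell cycle, fell by 0.40 ± 0.04. TK1, the thymidine kinase of the salvage route, had 110 and 109 CPM in D2000 against 121 and 119 CPM in untreated cells (-0.13 ± 0.05, adjusted p = 0.0269). TYMS, of de novo thymidylate synthesis, and TK1, of thymidine salvage, thus stood far apart in size of change. The fork protection genes fell by 0.44 ± 0.04 (CLSPN, the checkpoint adaptor claspin) and 0.17 ± 0.04 (TIMELESS, a scaffold that travels with the fork). The histone chaperone subunits CHAF1A and CHAF1B fell by 0.65 ± 0.05 and 0.53 ± 0.06, and SLBP, which binds the stem-loop of histone mRNAs, by 0.56 ± 0.04.

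For the members with the smallest changes the direction depended on the scaling. With library totals the log2 fold change in D2000 was 0.02 for RFC1, 0.10 for TK1 and 0.06 for TIMELESS, all above 0 and not called, and POLA2 and RPA3 were negative and not called.

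**Figure D3:**
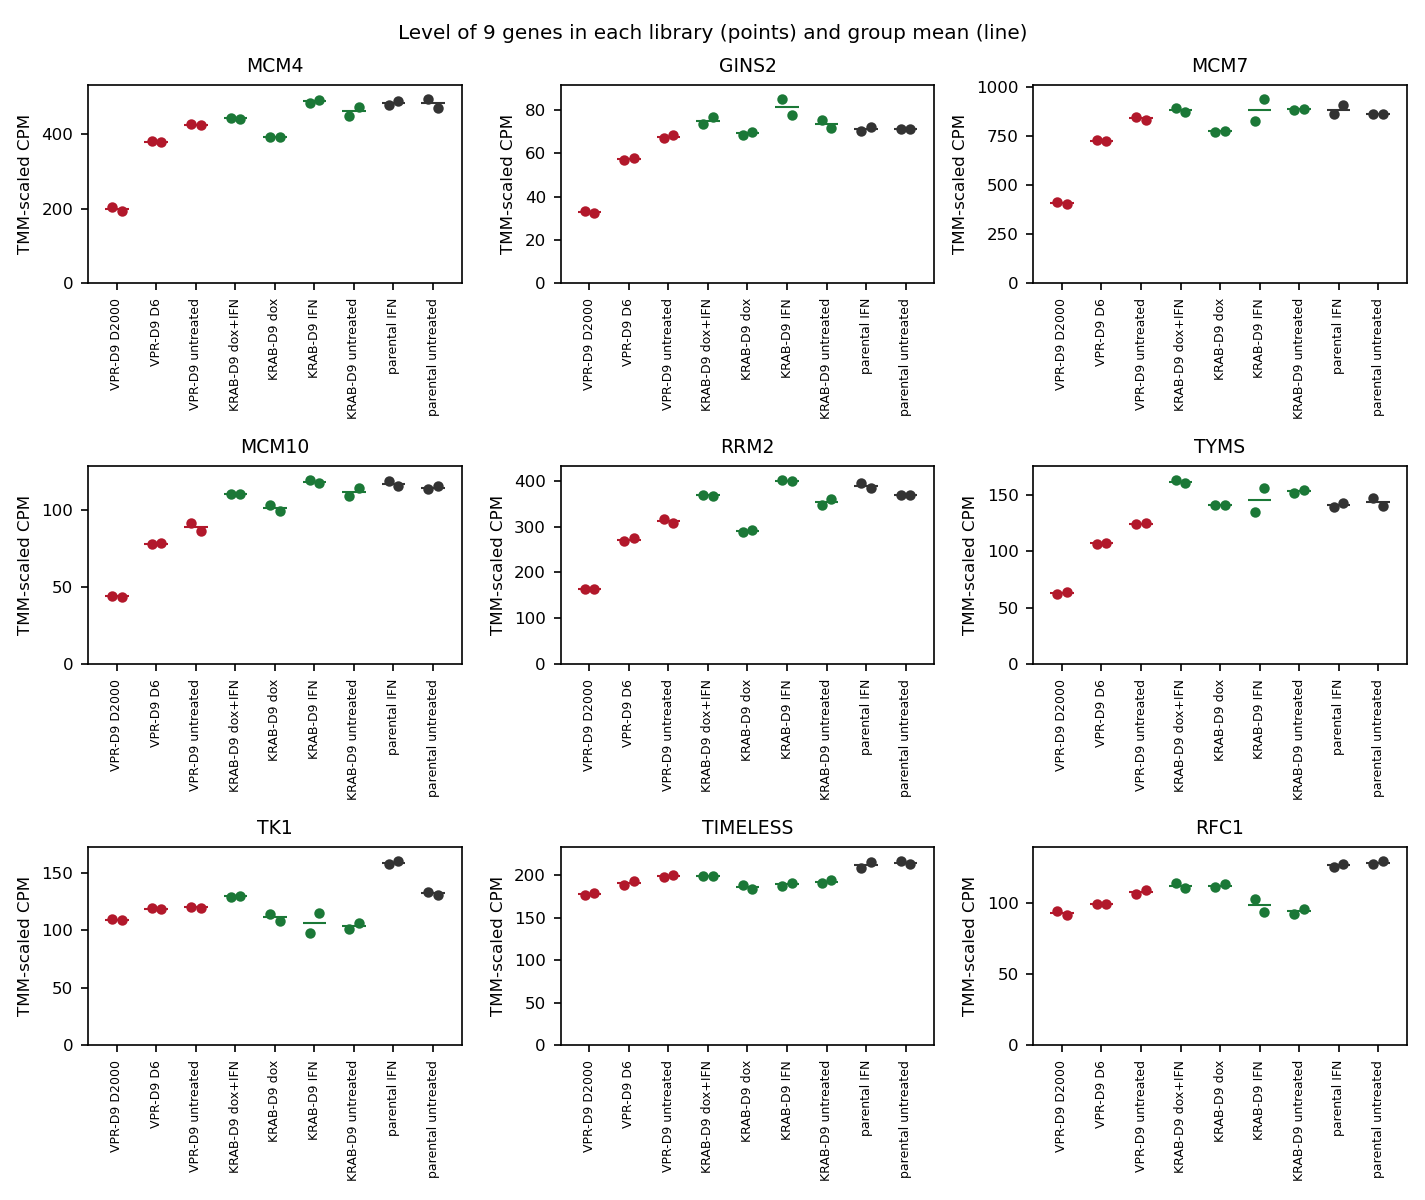
TMM-scaled CPM of 9 genes in every library (points) with the mean of each group (line); VPR-D9 groups are red, KRAB-D9 groups green and parental groups black, and axes start at 0. MCM4, GINS2, MCM7, MCM10, RRM2 and TYMS are lowest in D2000, TK1 is highest in parental cells with IFN, and TIMELESS varies least of the 9.

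In D6 the members fell in smaller number and by less, at a SAMD9 level close to that in D2000. In D6, 14 of the 45 members fell and none rose, against a background of 3.41% of all genes tested called lower and 7.99% of genes at or above the level of the lowest member. The median log2 fold change was -0.13 (range -0.24 to 0.10), with -0.01 over all genes, and 42 of the 45 values were negative. GINS2 had 57.0 and 57.5 CPM in D6 against 67.0 and 68.2 CPM in untreated VPR-D9 cells (-0.24 ± 0.05, adjusted p = 0.00286). MCM5 had 197 and 205 CPM in D6 against 239 and 232 CPM in untreated cells (-0.23 ± 0.05, adjusted p = 0.000819). TYMS had 107 and 108 CPM in D6 against 124 and 125 CPM in untreated cells (-0.22 ± 0.05, adjusted p = 0.00323). The D6 libraries of these 3 genes lay below both untreated libraries, as their choice required, and far above the D2000 libraries. MCM7 had 726 and 722 CPM in D6 (-0.21 ± 0.04, adjusted p = 0.000283). The others called were MCM4, MCM10, CDC6, CDC45, POLE, PCNA, FEN1, LIG1, RRM2 and CHAF1A, at -0.12 to -0.20. None of the polymerase alpha and primase genes, the RPA genes or the clamp loader genes passed the test in D6. Leaving out untreated replicate 1 gave 6 calls, either D6 replicate 8 and untreated replicate 2 10.

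The direct comparison of D2000 with D6 gave 42 of the 45 members lower in D2000 and none higher, with a median log2 difference of -0.51 and 0.05 over all genes. Of all genes tested 21.7% were called lower in D2000 than in D6, and of genes at or above the lowest member's level 47.4%. MCM4 differed most, with 205 and 195 CPM in D2000 against 380 and 378 CPM in D6 (-0.92 ± 0.04), followed by RFC3, with 40.6 and 38.8 CPM in D2000 against 73.1 and 70.8 CPM in D6 (-0.86 ± 0.05). MCM7 and MCM10 both differed by -0.82. TIMELESS was called lower in D2000 than in D6 (-0.10 ± 0.04) and, scaled by library totals, called higher (0.09, adjusted p = 0.0453). The comparisons of D2000 and D6 with untreated cells share the untreated libraries, and this comparison shares the D2000 and D6 libraries with them.

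**Figure D4:**
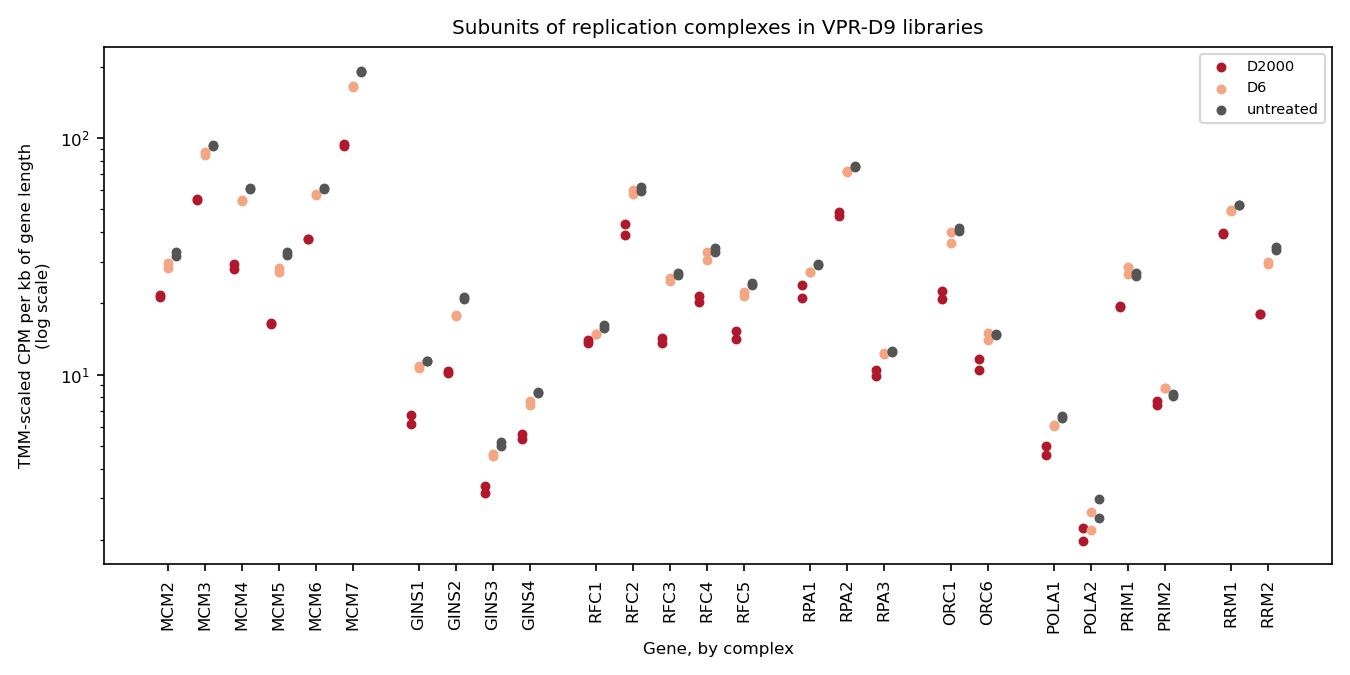
TMM-scaled CPM per kb of gene length (log axis) of the subunits of 7 complexes in the VPR-D9 libraries, 2 points each for D2000 (left), D6 (middle) and untreated cells (right). Subunits of a complex differ in level per kb, with MCM7 highest in MCM2-7 and POLA2 lowest of the polymerase alpha and primase genes. Most D2000 points lie below the others.

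Levels were also divided by the gene length given with the counts, which is only a rough scale for setting genes side by side. As the median over the 18 libraries, PCNA had 197 CPM per kb and MCM7 194 CPM per kb, the highest of the members. The other MCM2-7 genes had 28.3 (MCM5), 37.6 (MCM2), 63.3 (MCM4), 63.7 (MCM6) and 89.3 (MCM3) CPM per kb. Of the GINS genes, GINS2 had 21.9 and GINS3 6.3 CPM per kb, and of ribonucleotide reductase RRM1 had 59.7 and RRM2 38.7 CPM per kb. POLA2 was the lowest member, at 2.26 CPM per kb. Subunits that act in one complex thus had unequal values on this scale, and the order can depend on the length used. Before the division RRM2 had a median of 354 CPM and RRM1 253 CPM, with lengths of 9153 and 4233 bases. Gene lengths are those in the table, and lengths of the isoforms made in these cells were not measured.

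In KRAB-D9 cells the question was how the genes respond when the repressor is induced, with and without IFN. Doxycycline alone lowered 19 of the 45 members and raised 3, against a background of 12.7% of all genes tested called lower, 12% called higher, and 26.6% called lower and 20.2% higher among genes at or above the lowest member's level. The changes were small, with a median log2 fold change of -0.09 (range -0.39 to 0.25) and 0.02 over all genes. UNG, the glycosylase that removes uracil from DNA, had 55.5 and 56.3 CPM with doxycycline against 71.9 and 75.0 CPM untreated (-0.39 ± 0.05, adjusted p = 4.3e-07). FEN1 had 194 and 190.2 CPM with doxycycline against 238 and 241 CPM untreated (-0.32 ± 0.04). CLSPN had 112 and 119 CPM with doxycycline against 141 and 143 CPM untreated (-0.30 ± 0.04). These 3 genes stood at 0.76 to 0.81 of their untreated level. Lack of overlap was a condition for picking them, so it is no separate result. RRM2 had 288 and 292 CPM with doxycycline against 348 and 361 CPM untreated (-0.29 ± 0.04). By role, 4 of the 6 MCM2-7 genes fell (MCM4, MCM5, MCM6 and MCM7, by 0.11 to 0.23), 3 of 5 licensing factors (ORC1, CDC6 and MCM10) and 2 of 3 histone supply genes (SLBP and CHAF1A). Without untreated replicate 2 the calls numbered 12, and without doxycycline replicate 2 13. Markers moved in the same comparison. The summed K562 markers were 3696 and 3625 CPM with doxycycline against 3240 and 3263 CPM untreated, with 6 of 10 called higher and none lower. The summed fibroblast and epithelial markers, which are mostly EPCAM, were 84.2 and 84.1 CPM with doxycycline against 115.4 and 114.4 CPM untreated, with 4 of the 5 tested called lower. The summed lymphoid markers were 3.99 and 3.73 CPM with doxycycline against 9.13 and 7.98 CPM untreated, with 1 of the 6 tested called lower. Their part in the result was not tested.

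The 3 members that rose with doxycycline were RFC1, RPA3 and LIG1. RFC1 had 111 and 113 CPM with doxycycline against 92.2 and 95.8 CPM untreated (0.25 ± 0.05). RPA3 had 30.6 and 28.2 CPM with doxycycline against 26.9 and 22.8 CPM untreated (0.24 ± 0.08). LIG1 had 138 and 142 CPM with doxycycline against 126 and 123 CPM untreated (0.17 ± 0.05). All 6 doxycycline values lay above the untreated ones, but without untreated replicate 2 the adjusted p was 0.434 for RPA3 and 0.0904 for LIG1. RPA3 also lost its call without doxycycline replicate 1, and LIG1 without doxycycline replicate 2.

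The effect of D2000 in VPR-D9 cells was set against that of doxycycline in KRAB-D9 cells, each against its own untreated cells. The difference was called below 0 for 41 of the 45 members and above 0 for none, with a median of -0.55, while 19.1% of all genes tested and 42.8% of the 8749 genes at or above the lowest member's level were called below 0. GINS2, for example, changed by -1.04 ± 0.05 in D2000 and by -0.09 ± 0.05 with doxycycline in KRAB-D9 cells.

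With doxycycline present, IFN raised 14 of the 45 members and lowered none, where 3.12% of all genes tested were called higher and 6.19% of those at or above the lowest member's level. The median log2 fold change was 0.13, against 0.00 over all genes, and 42 of the 45 values were positive. RRM2 had 369 and 367 CPM with both agents against 288 and 292 CPM with doxycycline alone (0.34 ± 0.04, adjusted p = 3.05e-09). POLD3, an accessory subunit of polymerase delta, had 40.4 and 39.3 CPM with both against 32.5 and 30.9 CPM with doxycycline (0.33 ± 0.07, adjusted p = 0.00147). CLSPN had 142 and 146 CPM with both against 112 and 119 CPM with doxycycline (0.32 ± 0.04, adjusted p = 1.53e-06). The libraries of these genes did not overlap, as their choice required. POLE2 had 35.4 and 32.8 CPM with both against 29.9 and 26.4 CPM with doxycycline (0.28 ± 0.09, adjusted p = 0.0496), a call lost without either replicate with both agents or without doxycycline replicate 2 (adjusted p = 0.0733 to 0.488). The others that rose were ORC1, CDC6, MCM3, MCM4, MCM7, CDC45, PCNA, TYMS, TK1 and CHAF1A, at 0.17 to 0.28. Both this comparison and that of doxycycline alone use the libraries with doxycycline alone, so the low levels of RRM2 and CLSPN in those libraries enter both. Without replicate 1 of the cells with both agents 8 members were called.

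**Figure D5:**
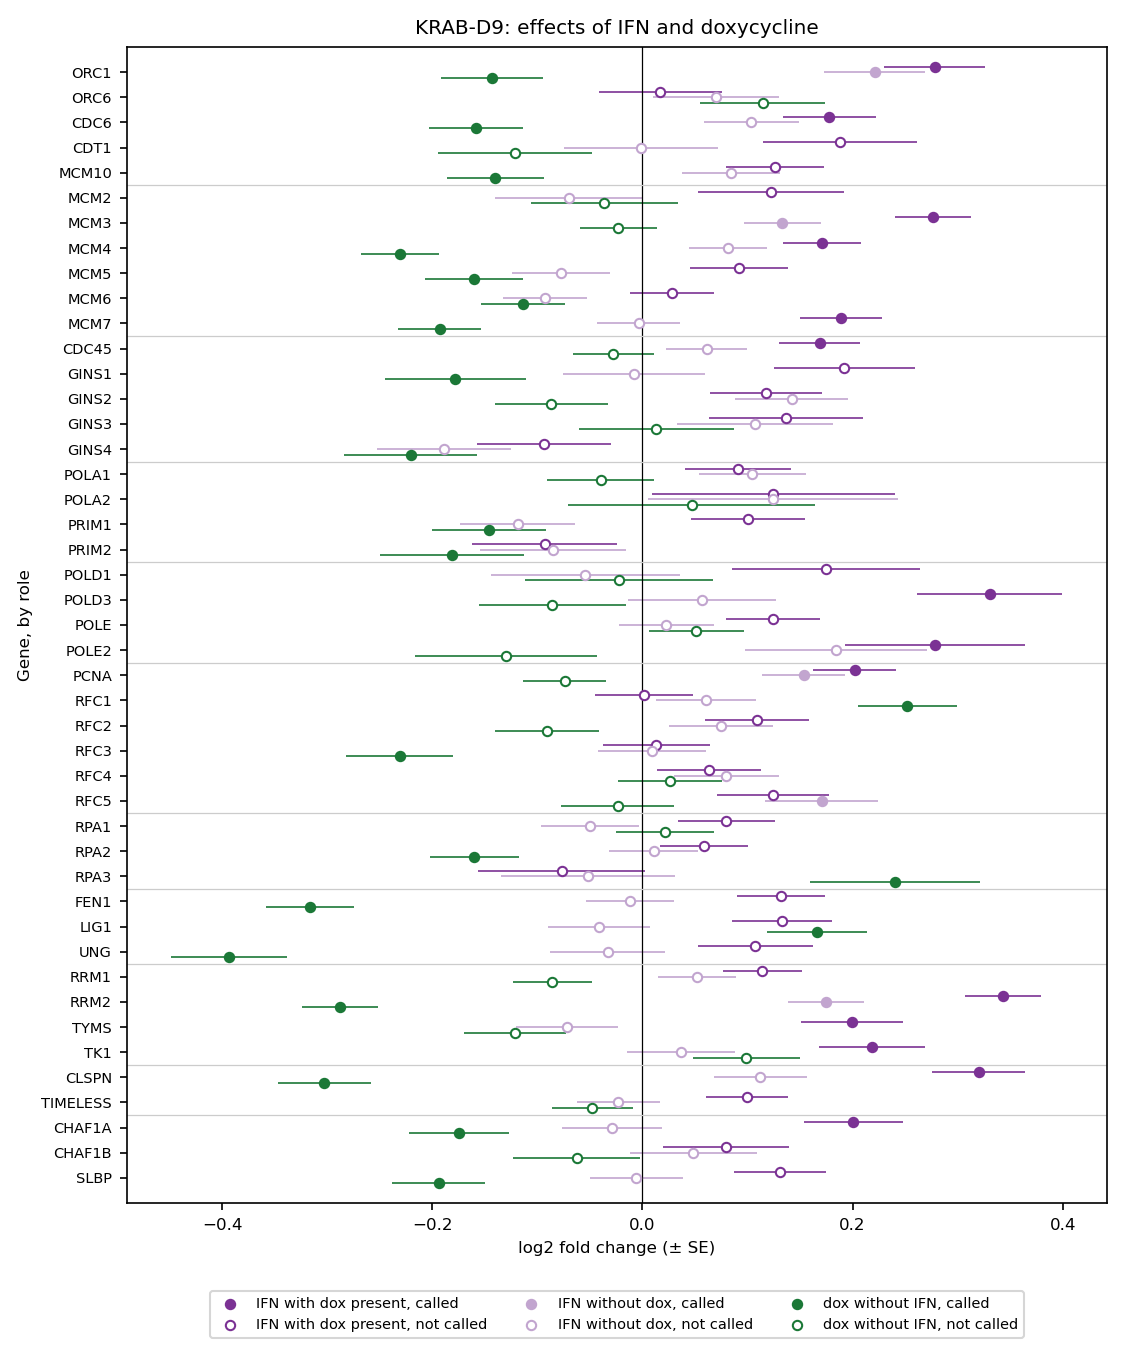
Log2 fold changes in KRAB-D9 cells with bars of 1 SE: IFN in the presence of doxycycline (dark purple), IFN without doxycycline (light purple) and doxycycline without IFN (green); filled points passed an adjusted p of 0.05. IFN points with doxycycline lie above 0 for 42 of 45 genes, and doxycycline points lie below 0 for 35 of 45.

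Without doxycycline, IFN raised 5 of the 45 members in KRAB-D9 cells and lowered none, where 3.98% of all genes tested were called higher. The members' share of 11.1% stood beside 7.89% of the 8749 genes at or above the lowest member's level, and the fit of only the compared groups called 0 of the 45. ORC1 had 152 and 147 CPM with IFN against 129 and 127 CPM untreated (0.22 ± 0.05). RRM2 had 401 and 398 CPM with IFN against 348 and 361 CPM untreated (0.17 ± 0.04). RFC5, a clamp loader subunit, had 90.8 and 90.1 CPM with IFN against 78.8 and 82.0 CPM untreated (0.17 ± 0.05, adjusted p = 0.049). The RFC5 call was lost under DESeq2 size factors, library totals, no filter, the replicate block, the compared groups alone and without any 1 of the 4 libraries, with adjusted p from 0.0501 to 0.334. PCNA and MCM3 rose by 0.15 ± 0.04 and 0.13 ± 0.04. The IFN libraries of this group differed between themselves by -0.28 to 0.37 on the log2 scale over the members, and by more than 0.2 for 7 of them. MCM2, for example, had 159 and 201 CPM. With replicate 2 of this group left out 12 members were called, 7 higher and 5 lower, with replicate 1 left out 2 were called, and without replicate 1 of the untreated cells 1 was called.

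In parental cells IFN changed 1 of the 45 members, where 4.34% of all genes tested and 8.88% of the 8749 genes at or above the lowest member's level were called. TK1 had 158 and 160 CPM with IFN against 134 and 131 CPM untreated (0.26 ± 0.05, adjusted p = 0.000444). The largest rise among the other members was that of POLD1, at 0.13 and not called, and the range began at -0.12.

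The tests of the differences between these effects called no member. For the difference between the IFN effects with and without doxycycline, edgeR's test called 0 of 45 members, with 16 at an unadjusted p under 0.05, all above 0, DESeq2 called 2, and 0.158% of all genes tested were called. For the difference between the IFN effects in KRAB-D9 and parental cells, edgeR's test called 0 members, with 6 at an unadjusted p under 0.05, DESeq2 called 0, and 0.303% of all genes were called. The shares of all genes refer to the adjusted p. The share of all genes at an unadjusted p under 0.05 was not determined, so the 16 and the 6 have no background beside them. Both differences use the unlike libraries of KRAB-D9 cells with IFN. Without replicate 2 of that group 10 and 7 members were called.

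Doxycycline during IFN raised 8 of the 45 members and lowered 6, where 22.3% of all genes tested were called. The members' share of 31.1% was below the 43.4% of the 8749 genes at or above the lowest member's level. LIG1 had 155 and 151 CPM with both agents against 114 and 128 CPM with IFN alone (0.34 ± 0.05), and TK1 had 129 and 130.1 CPM with both against 97.7 and 115 CPM with IFN (0.28 ± 0.05). UNG had 60.7 and 59.7 CPM with both against 69.7 and 73.6 CPM with IFN (-0.25 ± 0.05). RFC3 had 69.1 and 68.2 CPM with both against 80.5 and 80.3 CPM with IFN (-0.23 ± 0.05). RFC1 and POLD3 rose by 0.19 each, and PRIM2 and FEN1 fell by 0.19 ± 0.07 and 0.17 ± 0.04. Scaled by library totals, the split was 11 higher and 3 lower, and without replicate 1 of the cells with both agents 8 members were called.

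Cells with both agents, set against untreated KRAB-D9 cells, had 9 members higher and 5 lower of the 45, where 25% of all genes tested were called. Again the members' share, 31.1%, was below that of the 8749 genes at or above the lowest member's level, 47.4%. TK1 had 129 and 130.1 CPM with both against 101 and 107 CPM untreated (0.32 ± 0.05). LIG1 had 155 and 151 CPM with both against 126 and 123 CPM untreated (0.30 ± 0.05). GINS4 had 37.9 and 40.1 CPM with both against 48.2 and 48.7 CPM untreated (-0.31 ± 0.06). MCM3 and RFC1 rose by 0.25 each, and UNG, PRIM2 and RFC3 fell by 0.29 ± 0.05, 0.27 ± 0.07 and 0.22 ± 0.05. UNG, FEN1, RFC3 and PRIM2 were called lower, and RFC1 and LIG1 higher, in each of the 3 comparisons that set cells with doxycycline against cells without it, which share libraries. The PRIM2 calls were the least stable of these: that for doxycycline alone was lost under library totals (adjusted p = 0.135), no filter (0.061) and the replicate block (0.0517), and that during IFN under library totals (0.185), no filter (0.0588) and the compared groups alone (0.147). Library totals gave 16 higher and 5 lower.

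The untreated lines already differed from each other. In untreated VPR-D9 cells 5 members were higher and 19 lower than in untreated parental cells, where 36.8% of all genes tested were called. The members' share of 53.3% was below the 60.7% of the 8749 genes at or above the lowest member's level. POLE2 had 21.4 and 22.8 CPM in VPR-D9 against 30.5 and 34.6 CPM in parental cells (-0.56 ± 0.09). MCM10 had 91.2 and 86.1 CPM in VPR-D9 against 113 and 115 CPM in parental cells (-0.37 ± 0.05). POLD3 had 50.4 and 50.2 CPM in VPR-D9 against 35.3 and 41.2 CPM in parental cells (0.40 ± 0.07). POLE2 and MCM10 were thus lower in the untreated line and fell further in D2000, while POLD3 was higher in the line and fell in D2000. SLBP and RFC1 were lower by 0.33 ± 0.04 and 0.25 ± 0.05, and POLA2, MCM5 and LIG1 higher by 0.34 ± 0.11, 0.22 ± 0.05 and 0.15 ± 0.05. With library totals the split was 7 higher and 9 lower, and 14 members were called without either VPR-D9 library, 15 without parental replicate 1 and 16 without parental replicate 2.

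In untreated KRAB-D9 cells 5 members were higher and 12 lower than in untreated parental cells, where 28.5% of all genes tested were called. The share was 37.8% of the members and 46.9% of the 8749 genes at or above the lowest member's level. RPA3, the smallest RPA subunit, had 26.9 and 22.8 CPM in KRAB-D9 against 46.4 CPM in both parental libraries (-0.90 ± 0.08, adjusted p = 6.25e-12). CDC6 had 114 and 110 CPM in KRAB-D9 against 171 and 177 CPM in parental cells (-0.63 ± 0.04, adjusted p = 1.07e-14). PRIM2 and RFC1 were lower by 0.45 each. CDT1, the partner of CDC6 in licensing, was higher, with 162 and 173 CPM in KRAB-D9 against 136 CPM in both parental libraries (0.30 ± 0.07). ORC6, GINS1 and MCM5 were higher by 0.20 ± 0.06, 0.18 ± 0.07 and 0.16 ± 0.05. MCM5 was called higher than in parental cells in both engineered lines. However, no member called higher in untreated KRAB-D9 cells, MCM5 included, kept that call when replicate 2 of these cells was left out. Without either library of KRAB-D9 cells 10 or 11 members were called, and without parental replicate 1 11.

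Other genes of the same processes were counted from lists of non-members. In D2000, of 44 other origin and fork genes 2 rose and 36 fell, with a median of -0.58. Among those that fell were DSCC1 of an alternative clamp loader (-1.12 ± 0.06) and the polymerase epsilon subunit POLE3 (-1.11 ± 0.05). The polymerase delta subunit POLD4 went the other way, with 23.4 and 23.2 CPM in D2000 against 12.5 and 11.4 CPM in untreated cells. In D6 it had 12.3 and 11.0 CPM, and D2000 minus D6 was 1.00 ± 0.12 (adjusted p = 2.37e-09). Of 33 other nucleotide supply genes 3 rose and 29 fell, among them the nucleoside diphosphate kinase NME1 (-1.54 ± 0.06), with a median of -0.68. Of 30 G1/S control genes 5 rose and 20 fell, among them MYC, with 53.3 and 56.0 CPM in D2000 against 164 and 168 CPM in untreated cells (-1.60 ± 0.04), and of 32 mitotic genes 1 rose and 24 fell, with a median of -0.38. In D6 the lists had 0, 0, 1 and 0 genes higher and 8, 3, 6 and 7 lower, in the same order. As background, 24.2% of all genes tested were called lower in D2000 and 3.41% in D6. Among the 8749 genes at or above the lowest member's level the shares were 52.1% and 7.99%.

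In KRAB-D9 cells doxycycline alone raised 4 and lowered 15 of the origin and fork genes, raised 4 and lowered 17 of the nucleotide supply genes and raised 6 and lowered 12 of the G1/S genes, with the G1 cyclin CCND1 at -1.65 ± 0.13. Of the mitotic genes it raised 11 and lowered 1. As background, 12.7% of all genes tested were called lower with doxycycline alone and 12% higher. Among the 8749 genes at or above the lowest member's level the shares were 26.6% and 20.2%. IFN lowered 12 of the 32 mitotic genes in parental cells, 12 in KRAB-D9 cells without doxycycline and 16 with it, and raised none in any of the 3. Of all genes tested 1.31%, 2.42% and 1.77% were called lower in the same order, and of the 8749 genes at or above the lowest member's level 2.99%, 5.13% and 3.89%. Its largest change in the nucleotide supply list was in SAMHD1, the enzyme that degrades deoxynucleotides and is known as an interferon-induced gene. SAMHD1 had 145 and 142 CPM with IFN against 37.0 and 36.2 CPM untreated in parental cells (1.97 ± 0.06). In KRAB-D9 cells it had 120 and 121 CPM with both agents against 20.8 and 20.4 CPM with doxycycline (2.54 ± 0.06), and 139 CPM in both IFN libraries against 20.4 and 21.6 CPM untreated (2.73 ± 0.06). These rises stood beside members whose IFN changes did not exceed 0.34.

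Some values carry a limit of the counting. Of the 45 members 28 overlap another gene of the table on the genome, and 10 overlap one with at least 10% of their own counts: GINS2, PRIM1, RFC4, RFC5, RPA1, RPA3, FEN1, TYMS, CHAF1A and CHAF1B. The overlapping gene had 1000% of the member's counts for PRIM1 (NACA), 626% for GINS2 (GSE1) and 387% for RFC4 (EIF4A2). It had 132% for RFC5 (WSB2) and for CHAF1B (MORC3), and 10.2% to 44.9% for the others. The strand setting of the counting is not given in the sources used here. Levels and changes of these genes, GINS2, RPA3 and TYMS among them, are therefore uncertain as far as reads of the overlapping gene could be counted for them.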

How the data were processed

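Per the labels' protocols, libraries were made from polyA-selected RNA with a stranded kit. The values deposited by the authors are raw read counts per gene, with each gene's length in bases (Feature_length) beside them. Tools listed in the submitters' processing notes are STAR 2.7.8a, featureCounts 2.0.2, cutadapt 2.10 and FastQC 0.11.9, with build GRCh38.p13. Annotation release, strand setting and treatment of multi-mapping reads are not stated there. Groups were taken from the labels. In R 4.3.3, genes were filtered with filterByExpr by group, scaled by TMM, and fitted in 1 edgeR 4.0.16 quasi-likelihood model (robust) of 9 group means over all 18 libraries, leaving 9 residual degrees of freedom. The common biological coefficient of variation was 0.0569. Benjamini-Hochberg adjustment ran over all 22143 genes, for 14 comparisons. The SE is the log2 fold change over the square root of F. DESeq2 1.42.0, other scalings, no filter, the compared groups alone, a replicate block and leaving out each library were tried as alternatives. Scripts were tested on simulated data. Members and lists were chosen with earlier results of these data known. For each comparison, library values are given for up to 4 called, non-overlapping members with the largest rise and up to 4 with the largest fall, and for members in the complexes and differences described. Up to 3 genes were named per other list.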

Additional observations from a re-analysis of the deposited data

Results flagged for a closer look

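The change in D2000 against untreated VPR-D9 cells differed from the change with doxycycline against untreated KRAB-D9 cells for 41 of the 45 members, all more negative in VPR-D9, by the test of the difference itself in edgeR's model. The difference was called below 0 for 19.1% of all genes tested and 42.8% of the 8749 genes at or above the lowest member's level. The difference in log2 fold change was -0.95 for GINS2, -0.89 for CDC45, -0.87 for MCM10 and -0.86 for TYMS, the 4 largest. SAMD9 went from 59.9 and 61.4 CPM to 974 and 948 CPM in D2000. In KRAB-D9 cells it had little left to lose, with 40 and 16 counts untreated and 0 and 6 with doxycycline. Both lines received doxycycline, but line, fusion protein and the starting level, size and direction of the SAMD9 change differ together and cannot be told apart.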

How the results depend on the processing

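For the up to 4 largest rises and falls of each comparison, of 656 values for 64 results under the alternatives, 599 stayed on their side of the threshold, 57 no longer passed it and 0 reversed. Over all 252 called results of members, 4 of 2684 values reversed, all under library totals: RFC1 (0.02), TK1 (0.10) and TIMELESS (0.06) in D2000, and TIMELESS in D2000 minus D6 (0.09, adjusted p = 0.0453). Of the others 278 no longer passed. Fitting the compared groups alone called 2 members for IFN in parental cells, 0 for IFN in KRAB-D9 cells and 5 for doxycycline during IFN. Without a filter on low counts, IFN in KRAB-D9 cells called 3. Scaling by library totals called 9 in D6. DESeq2 called 2 for the difference between the IFN effects with and without doxycycline. The cause was not tested. Leaving out 1 library at a time gave 1 for IFN in parental cells, 1 to 12 for IFN in KRAB-D9 cells, 8 to 12 for IFN with doxycycline present, 12 to 16 for doxycycline in KRAB-D9 cells, 8 to 17 for doxycycline during IFN, 11 to 15 for both agents, 42 to 43 for D2000, 6 to 10 for D6, 39 to 42 for D2000 minus D6, 0 to 10 for the IFN by doxycycline difference, 0 to 7 for the IFN effect between lines, 39 to 42 for D2000 against KRAB-D9 doxycycline, 14 to 16 for VPR-D9 and 10 to 13 for KRAB-D9 against parental cells. Libraries left alone in a group were assumed to vary like the other groups.

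With the replicate number as a block, the counts in the same order were 1, 4, 13, 21, 14, 14, 44, 13, 42, 0, 0, 41, 24 and 18. Correlations of the deviations of same-numbered libraries ran from -0.103 to 0.165 over 36 pairs of groups, and 1 was over 0.1. These values cannot tell whether same-numbered libraries shared a culture or a batch. Depth limited the members little, since the lowest had 384 counts. With 2 libraries a group, the spread within KRAB-D9 cells with IFN is larger than the shared estimate, so errors of comparisons that use it may be too small.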
